A study of Mus musculus with 16 samples.

Results

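The B cell receptor (BCR) signals mainly through subunits other than its immunoglobulin chains. The signal passes through the CD79A and CD79B subunits, whose cytoplasmic tails are phosphorylated after antigen binding and recruit the kinase SYK. The co-receptor complex, of which CR2 and CD81 are members, lowers the threshold for this signal, and a group of adaptors links it to the enzyme PLCγ2, which raises calcium, and to PI3K. The 9 genes described here are Cd79a and Cd79b (the signaling subunits), Cr2 and Cd81 (co-receptor members), Blnk (the scaffold that brings BTK and PLCγ2 together), Plcg2 (PLCγ2 itself), Bank1 (an adaptor bound by LYN), Pik3ap1 (also called BCAP, a PI3K adaptor) and Dapp1 (also called BAM32, an adaptor that binds PI3K products). They were chosen by symbol, and all 9 were found among the 56691 genes of the count matrix.

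Light zone (LZ) germinal center (GC) B cells were sorted from lymph nodes of 8 host mice, each of which had received B1-8hi BTKC481S and B1-8hi BTKWT B cells. B1-8hi is a knock-in heavy chain that makes the receptor bind the hapten NP with high affinity, and both kinds of transferred cell carry it. The C481S change makes BTK insensitive to covalent inhibitors such as acalabrutinib. Of the 8 hosts, 5 were given acalabrutinib by mouth (A7, A8, A10, A11 and A12) and 3 were given vehicle (V5, V7 and V9), and the ages of the mice are not given in the labels. Whole transcripts of single cells were sequenced by SMART-seq2, giving 16 labelled samples, a genotype within a host each. The names of the cells carry host, plate and well but no genotype, so both genotypes of a host were pooled and the host was the replicate. BTKC481S and BTKWT cells were not compared here, so a change in BTKWT cells alone cannot be told apart from a smaller one in both. The cells came from separate experiments whose hosts are not named, so experiment and host cannot be told apart.

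The matrix held 637 cells, 381 from acalabrutinib-treated and 256 from vehicle-treated hosts, with no cell name shared between hosts. Counts per cell lay between 132412 and 1825420, and a host contributed between 45 and 130 cells and between 26778559 and 114987280 counts. All 10 GC B cell markers were above 10 CPM (a gene's share of the counts of a host, scaled to 1e+06) and their summed level was between 6461 and 8849 CPM in the hosts. The 8 T cell markers summed to between 0.0418 and 22.5 CPM, the 8 macrophage and monocyte markers to between 22.0 and 38.9 CPM. Single T cell markers had a count in 0.157% to 2.67% of cells, single macrophage and monocyte markers in up to 38.1% (Adgre1, 8.67 CPM) and single follicular dendritic cell markers in up to 11.8% (Pdpn, 2.79 CPM).

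Promoter sequences were matched for 8 of the 9 genes, all but Cd79b. The 4 shown were picked because these genes were called lower in S or G2/M cells below. Of them, Blnk and Cd79a were not called in cells paired on depth. Each line gives the 250 bases before the transcription start from RefSeq (build GRCm38.p6), 5′ to 3′ on the strand of the gene, with motif matches in capitals. The motifs searched on both strands were the E-box CAGGTG, bound by E proteins such as E2A, the ETS core AGGAAGT, the octamer ATGCAAAT bound by OCT factors, and CCCNNGGG, the core of the EBF motif.
Cd79a, chr7:24897247-24897496, plus strand: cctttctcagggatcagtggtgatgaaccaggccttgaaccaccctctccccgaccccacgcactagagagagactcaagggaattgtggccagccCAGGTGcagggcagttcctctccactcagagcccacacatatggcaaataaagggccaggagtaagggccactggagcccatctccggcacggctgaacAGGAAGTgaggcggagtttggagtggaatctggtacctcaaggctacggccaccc
Blnk, chr19:40994222-40994471, minus strand: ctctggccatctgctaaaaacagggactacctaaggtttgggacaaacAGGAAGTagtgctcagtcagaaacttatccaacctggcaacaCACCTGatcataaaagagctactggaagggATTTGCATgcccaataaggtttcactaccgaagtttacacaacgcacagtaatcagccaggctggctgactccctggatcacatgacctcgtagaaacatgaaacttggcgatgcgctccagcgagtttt
Bank1, chr3:136326067-136326316, minus strand: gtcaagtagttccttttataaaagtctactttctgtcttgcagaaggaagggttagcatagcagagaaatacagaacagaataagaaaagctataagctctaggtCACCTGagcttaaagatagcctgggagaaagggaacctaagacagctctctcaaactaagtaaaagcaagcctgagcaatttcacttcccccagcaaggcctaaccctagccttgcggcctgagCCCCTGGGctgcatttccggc
Pik3ap1, chr19:41385103-41385352, minus strand: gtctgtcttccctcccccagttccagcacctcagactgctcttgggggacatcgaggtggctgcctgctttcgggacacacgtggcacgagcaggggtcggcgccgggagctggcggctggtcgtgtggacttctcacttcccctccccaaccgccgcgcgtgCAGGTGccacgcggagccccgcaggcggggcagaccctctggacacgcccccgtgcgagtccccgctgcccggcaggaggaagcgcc
All 4 sequences held the E-box, which began between 87 (Pik3ap1) and 160 (Blnk) bases before the start. Over the 8 promoters it was present in 6, those of Cd79a, Cr2, Blnk, Plcg2, Bank1 and Pik3ap1, and in 17.1% of 27025 promoters of the same length. Cr2 and Plcg2 were not among the genes called lower. The ETS core was present in 3 of the 8 (Cd79a, Blnk and Dapp1) and in 7.80% of all promoters. The octamer was present in Blnk and in 1.61% of all promoters, and the EBF core in Cd81 and Bank1 and in 11.7% of all promoters. Of the 8 promoters searched, that of Blnk alone held 3 of the motifs. These matches are descriptions of the letters, and binding was not measured.

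The 9 genes were not at like levels. Since a longer transcript gives more reads in this assay, levels of different genes are given as CPM per kilobase of exon, taking the mean of the 8 hosts. Cd79b (541 ± 94.4 CPM per kb, SD, n = 8 hosts) and Cd79a (495 ± 69.0) were the highest, and their hosts overlapped. Below them lay Pik3ap1 (182 ± 27.8), Plcg2 (155 ± 24.5), Cd81 (134 ± 18.3) and Blnk (125 ± 13.8), each within the spread over hosts of the next. Bank1 (65.7 ± 16.1), Dapp1 (40.8 ± 5.58) and Cr2 (21.6 ± 7.57) were the lowest. Exon lengths ran from 1431 bases for Cd79b to 8112 bases for Cr2, and reads within introns are in the counts too, so this order is approximate. On the level per kilobase, the signaling subunits stood above every adaptor and co-receptor gene.

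The genes also differed in how many cells had a count. Cd79a had a count in 634 of 637 cells (99.5%) and Cd79b in 621 (97.5%). Pik3ap1 (574 cells, 90.1%), Blnk (572 cells, 89.8%), Plcg2 (542 cells, 85.1%) and Cd81 (516 cells, 81.0%) were found in most cells. Bank1 was found in 488 cells (76.6%), Dapp1 in 298 (46.8%) and Cr2 in 187 (29.4%). Cr2, the receptor for complement C3d, and Dapp1 were therefore the only genes of the set whose median over all cells was 0 CPM. Among cells with a Cr2 count the median was 347 counts (482 CPM) and the 10th percentile 5 counts. The 63 cells with the highest Cr2 counts held 72.1% of all Cr2 counts, against 16.2% for the 63 highest cells of Cd79a.

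**Figure D1:**
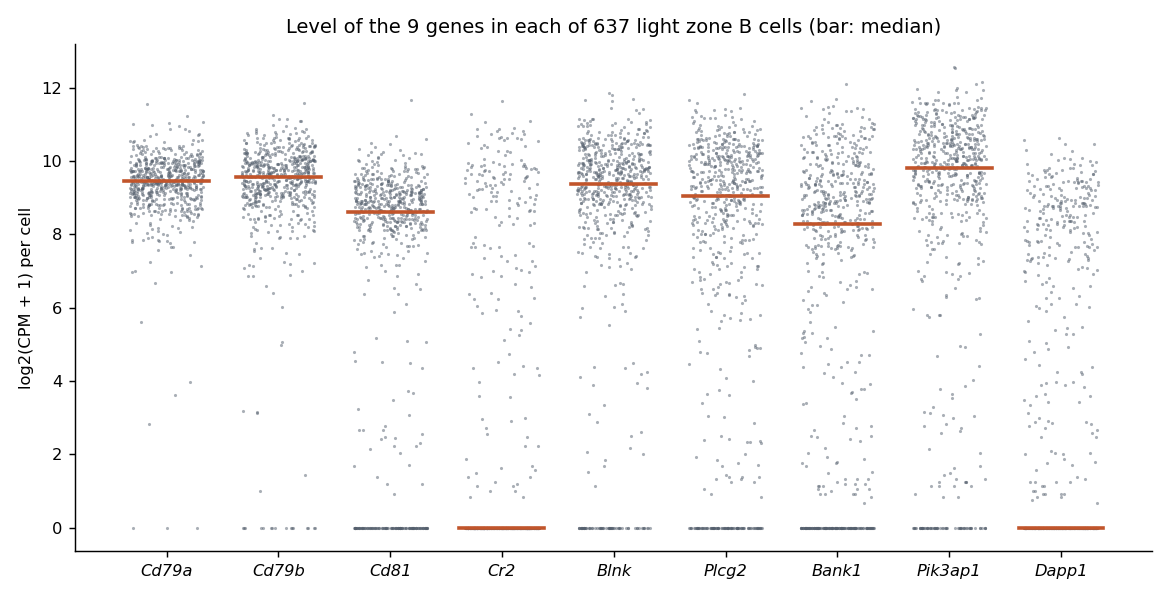
Each point is the level of a gene, as log2(CPM + 1) on the vertical axis, in each of 637 cells, and bars mark medians. Cd79a and Cd79b form a narrow band, while Cr2 and Dapp1 have their median at 0. Their cells with a count are spread widely, with medians of 482 and 293 CPM.

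Few cells had only 1 to 4 counts of a gene, but levels among cells with a count were spread widely. The 10th percentile of those cells was 5 counts for Cr2, 3 for Dapp1 and 9 for Bank1, against medians of 347, 221.5 and 368. A cell without a count need not lack the transcript. The cells with 1 to 4 counts numbered 2 for Cd79a, 3 for Cd79b, 17 for Cd81, 18 for Cr2, 12 for Blnk, 25 for Plcg2, 36 for Bank1, 22 for Pik3ap1 and 33 for Dapp1. With at least 5 counts required, the share was 71.0% of cells for Bank1, 41.6% for Dapp1 and 26.5% for Cr2. The background to set beside these shares was read from 20 long genes of other tissues, which had a count in a median of 89.6% of cells but a median of 0.0326 CPM per kilobase of gene span, 0.0481 at the highest. At that highest rate the 273 kb span of Bank1 would collect 13.1 CPM, and its mean level was 37.5 times that. For Plcg2, Pik3ap1, Cr2 and Dapp1 the mean level was 102, 188, 91.3 and 69.4 times that rate. For Plcg2 and Pik3ap1 that rate would give 6.58 and 5.42 CPM, and for Blnk, Dapp1 and Cr2 3.15, 2.43 and 1.92 CPM. Low counts of all these genes are thus within reach of background. For Bank1, the longest of the set, this includes cells with 5 counts or somewhat more. In GENCODE M21 Bank1 overlaps Gm31243 and Cd81 overlaps R74862, each on the opposite strand. SMART-seq2 does not mark strand, so reads of the overlapping pairs cannot be told apart.

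A cell had a count for a median of 7 of the 9 genes, 53 cells (8.32%) had all 9, and 23 cells (3.61%) had 4 or fewer. The share with at least 7 genes was between 63.6% (V7) and 76.9% (A10) in the hosts. Cells with all 9 genes made up 8.40% of the cells of acalabrutinib-treated and 8.20% of those of vehicle-treated hosts.

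Follicular dendritic cells also express Cr2, so their 9 markers were compared between cells with and without Cr2. The summed level was 10.4 CPM in the 187 cells with a Cr2 count and 25.1 CPM in the 450 without. Cxcl13, the chemokine of these cells, had no count in any cell, and Clu had a count in 0.157% of cells. Other markers of the list were found more often in cells with Cr2, Madcam1 in 3.21% against 1.11% of cells, Vcam1 in 2.14% against 0.889% and Pdpn in 13.9% against 10.9%, of which Madcam1 was also higher in level (0.351 against 0.0164 CPM). The T cell markers summed to 8.40 CPM in cells with Cr2 and 14.2 CPM in the others, the macrophage and monocyte markers to 23.1 and 38.4 CPM. The GC B cell markers summed to 7751 and 7092 CPM. The plasma cell markers summed to 1081 and 1384 CPM. None of these 4 lists of other cells had a higher summed level in the cells with Cr2.

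Acalabrutinib blocks BTK, the kinase that acts on PLCγ2 at the BLNK scaffold, and the comparison with vehicle asks whether the transcripts of this machinery differed in the treated hosts. The paper gave it in repeated oral doses, of a size at which it saw no measurable change in survival. A treated host also held BTKC481S cells, whose BTK is insensitive to the drug, and these were pooled with the BTKWT cells. The transcripts of the 9 genes did not pass the test. By the quasi-likelihood test of edgeR, 0 of the 9 genes and 0 of all 18016 genes tested (0%) had an adjusted p under 0.05, and at an unadjusted p under 0.05 the counts were 0 of the 9 and 616 of all genes (3.42%). DESeq2 was given all 32322 genes with a count and called 0 of the 9 and 446 in all. Its default filter can leave genes of low count without an adjusted p, and the number of such genes was not recorded. The tool limma, run on means over cells, called 0 of the 9 and 0 of 10617 genes. Lower levels in a host can reflect fewer cells with the transcript or less of it per cell. The shares below give the cells with a count, which depend on depth too, so they do not fully separate these.

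Cd79a stood at 878, 799, 687, 612 and 638 CPM in hosts A7, A8, A10, A11 and A12 and at 782, 772 and 603 CPM in V5, V7 and V9. Cd79b stood at 999.9, 879, 691, 611 and 672 CPM in the same order of hosts, and at 854, 828 and 661 CPM with vehicle. The hosts of both treatments overlapped for both subunits. Hosts also differed in depth, with median totals per cell from 599290 counts (V5) to 946463 (A12). Cells called G1 below were from 40 of 130 cells (V9) to 51 of 89 (A8). The part of depth and phase in the spread between hosts was not tested. The log2 fold change, acalabrutinib against vehicle, was -0.01 ± 0.21 (SE; 95% interval -0.47 to 0.45) for Cd79a and -0.03 ± 0.23 (-0.54 to 0.48) for Cd79b.

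Cr2 varied most between hosts. It stood at 233, 254, 129, 111 and 90.7 CPM in A7, A8, A10, A11 and A12 and at 155, 222 and 206 CPM in V5, V7 and V9. A10, A11 and A12 were below every vehicle-treated host and A7 and A8 above every one of them, so the groups overlapped. Its log2 fold change was -0.23 ± 0.37 (95% interval -1.05 to 0.59), which leaves room for a change of either sign. The share of cells with a Cr2 count was 14.8% in A12, which had the lowest level, and 37.8% in A7. The other co-receptor gene, Cd81, stood at 403 ± 60.5 CPM (SD, n = 5) with acalabrutinib and 358 ± 21.4 CPM (n = 3) with vehicle, a log2 fold change of 0.16 ± 0.19 (-0.27 to 0.59).

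Among adaptors and effector, Plcg2 stood at 619, 907, 652, 586 and 683 CPM in A7, A8, A10, A11 and A12 and at 620, 694 and 581 CPM in V5, V7 and V9. A8 was apart from the rest, and the other hosts of both treatments shared a range. Its log2 fold change was 0.11 ± 0.19 (95% interval -0.32 to 0.54). Bank1 stood at 603, 664, 435, 346 and 424 CPM in the acalabrutinib-treated hosts and at 629, 412 and 423 CPM with vehicle, a log2 fold change of 0.01 ± 0.28 (-0.62 to 0.63). Blnk (728 ± 76.1 CPM against 789 ± 93.5, log2 fold change -0.14 ± 0.18), Pik3ap1 (1042 ± 191 against 973 ± 81.8, 0.09 ± 0.19) and Dapp1 (170 ± 22.5 against 166 ± 28.6, 0.00 ± 0.20) differed by less than the spread between hosts. The adjusted p was 1.0 for all 9 genes by edgeR. Hosts of both treatments overlapped in CPM for all 9 genes, and 392 of the 18016 genes (2.18%) had hosts that did not overlap.

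**Figure D2:**
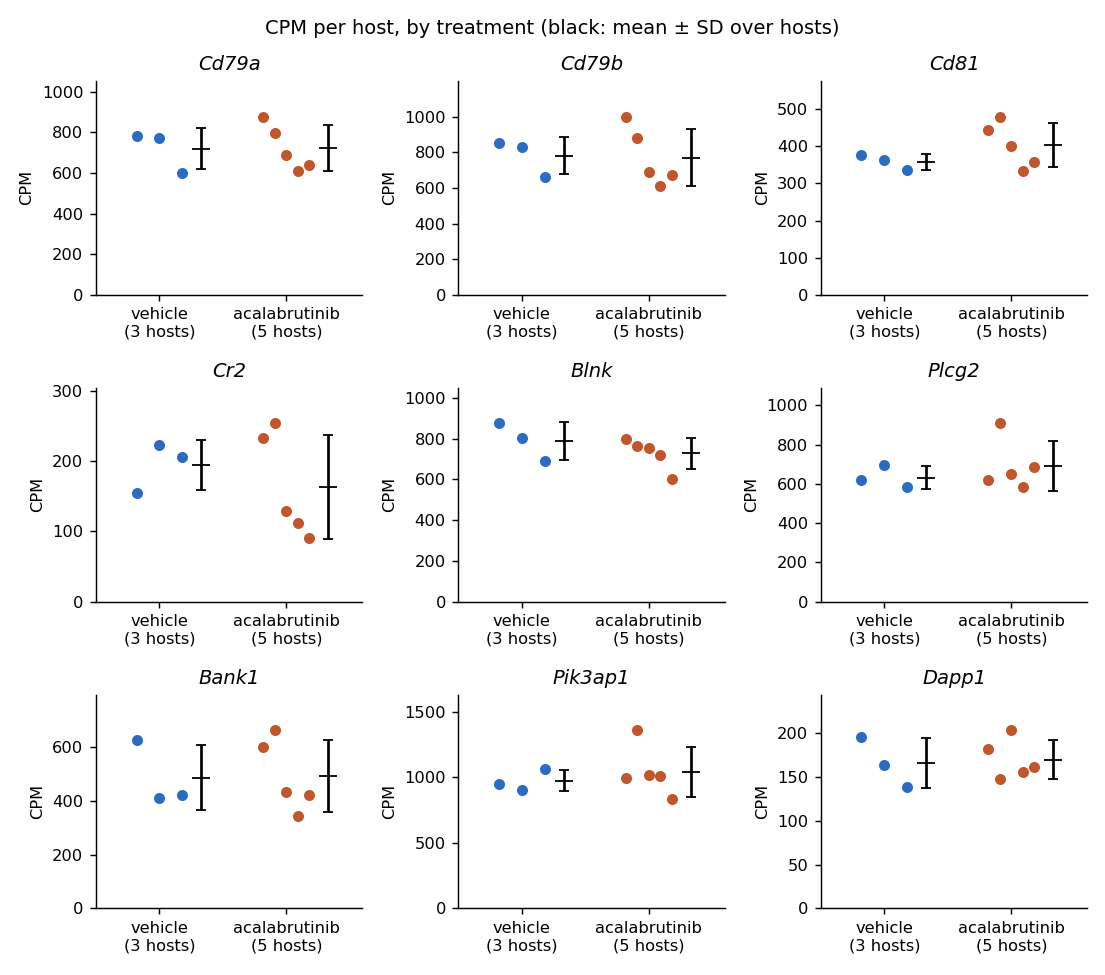
CPM of each gene (vertical axis) in 3 vehicle-treated and 5 acalabrutinib-treated hosts, 1 point per host, with the mean ± SD in black. The points of both treatments overlap in every panel, and the spread between hosts is widest, relative to the mean, for Cr2 (35.1% of the mean over the 8 hosts) and Bank1 (24.4%).

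By the shares of cells with a count no gene of the set was called either. Splits of the 8 hosts into 5 and 3 number 56, so the exact permutation test (two-sided) can give no p below 0.018. The difference between treatments was largest for Dapp1 (47.3% ± 6.76 of cells, SD, n = 5, against 44.0% ± 3.37, n = 3, a difference of 3.26 percentage points; exact p = 0.464) and Cr2 (29.4% ± 9.70 against 30.8% ± 1.62; exact p = 0.893). Without A7, the host with the lowest Dapp1 share (35.6%), the difference for Dapp1 was 6.19 points (exact p = 0.0286, adjusted p = 1.0). That p is the smallest this test can give without A7. With all hosts no gene of the set had an unadjusted exact p under 0.05, which 175 of 10617 genes tested (1.65%) had, and 0 genes (0%) passed after adjustment. For any gene to pass, a large part of all genes would have to reach the smallest p. The adjusted values of this test therefore decide little. Plates of a host differed too. In the 5 hosts with more than 1 plate the highest plate had up to 1.28 times the level of the lowest for Cd79a, up to 1.42 times for Cd79b, up to 2.41 times for Cr2 and, in V9, 4.93 times for Dapp1.

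In the GC, LZ cells that have been selected enter S phase, and cycling cells then pass to the dark zone. The paper also describes a cluster high in Ccnb2 that resembles dark-zone-like cells newly come to the LZ. Cells called S or G2/M may hold both kinds, which were not separated here. Each cell was assigned a phase from 43 S and 54 G2/M genes, none of them among the 9, which gave 248 cells in G1, 241 in S and 148 in G2/M. Cells in S or G2/M had lower levels of 5 of the 9 genes than G1 cells of the same host, and none was higher. These were the adaptors Bank1, Pik3ap1 and Blnk and the signaling subunits Cd79b and Cd79a. Over all genes edgeR called 472 of 12686 (3.72%), 160 of them lower (1.26%) and 312 higher (2.46%). At an unadjusted p under 0.05 there were 6 of the 9 and 1760 of all genes (13.9%). The median log2 fold change was -0.36 over the 9 genes and 0.14 over all genes tested.

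Bank1 fell most. Its level in G1 cells lay between 344 and 948 CPM over the 8 hosts (median 794) and in S or G2/M cells between 233 and 531 CPM (median 332). It was lower in the S or G2/M cells of 7 hosts, and in A11 the values were 344 and 346 CPM. The log2 fold change was -1.10 ± 0.20 (SE, n = 8 hosts; edgeR, adjusted p = 0.0153). Among cells with a count the median was 836 CPM in G1 and 364 CPM in S or G2/M cells (means over hosts), lower in 8 of 8 hosts, while the share of cells with a count was 79.7% ± 6.45 and 75.0% ± 4.89 (SD, n = 8). BANK1 is an adaptor restricted largely to B cells that links LYN to calcium release.

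Pik3ap1 lay between 1084 and 1652 CPM in G1 cells (median 1198) and between 726 and 1039 CPM in S or G2/M cells (median 848), lower in 8 of 8 hosts. Its log2 fold change was -0.57 ± 0.072 (edgeR, adjusted p = 0.00196). The ranges of the G1 and cycling cells of different hosts did not overlap. Blnk lay between 678 and 1204 CPM in G1 (median 826) and between 568 and 784 CPM in S or G2/M cells (median 691), also lower in 8 of 8 hosts (log2 fold change -0.36 ± 0.076; edgeR, adjusted p = 0.0295). Its ranges overlapped, and the direction within each host was the same.

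Cd79b lay between 689 and 1168 CPM in G1 (median 922) and between 580 and 837 CPM in S or G2/M cells (median 651), lower in 8 of 8 hosts (log2 fold change -0.48 ± 0.068; edgeR, adjusted p = 0.00379). Cd79a lay between 685 and 991 CPM in G1 (median 796) and between 570 and 787 CPM in S or G2/M cells (median 663), lower in 7 of 8 hosts, V5 being the exception (log2 fold change -0.31 ± 0.067; edgeR, adjusted p = 0.0313). Cd79b, Blnk and Pik3ap1 were thus lower in all 8 hosts, as were 271 of the 12686 genes (2.14%).

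The remaining 4 genes did not pass the test. Plcg2 had a log2 fold change of -0.36 ± 0.11 (edgeR, adjusted p = 0.119), with a lower value in 7 of 8 hosts and a mean over hosts of 772 CPM in G1 and 616 CPM in S or G2/M cells. Dapp1 had -0.26 ± 0.24 (95% interval -0.79 to 0.28), Cd81 -0.04 ± 0.13 (-0.32 to 0.25) and Cr2 0.02 ± 0.37 (-0.80 to 0.83). Cr2 in particular went both ways, from 45.2 to 203 CPM in V5 and from 386 to 111 CPM in V7. The called genes were thus adaptors and subunits, and neither co-receptor gene was among them.

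**Figure D3:**
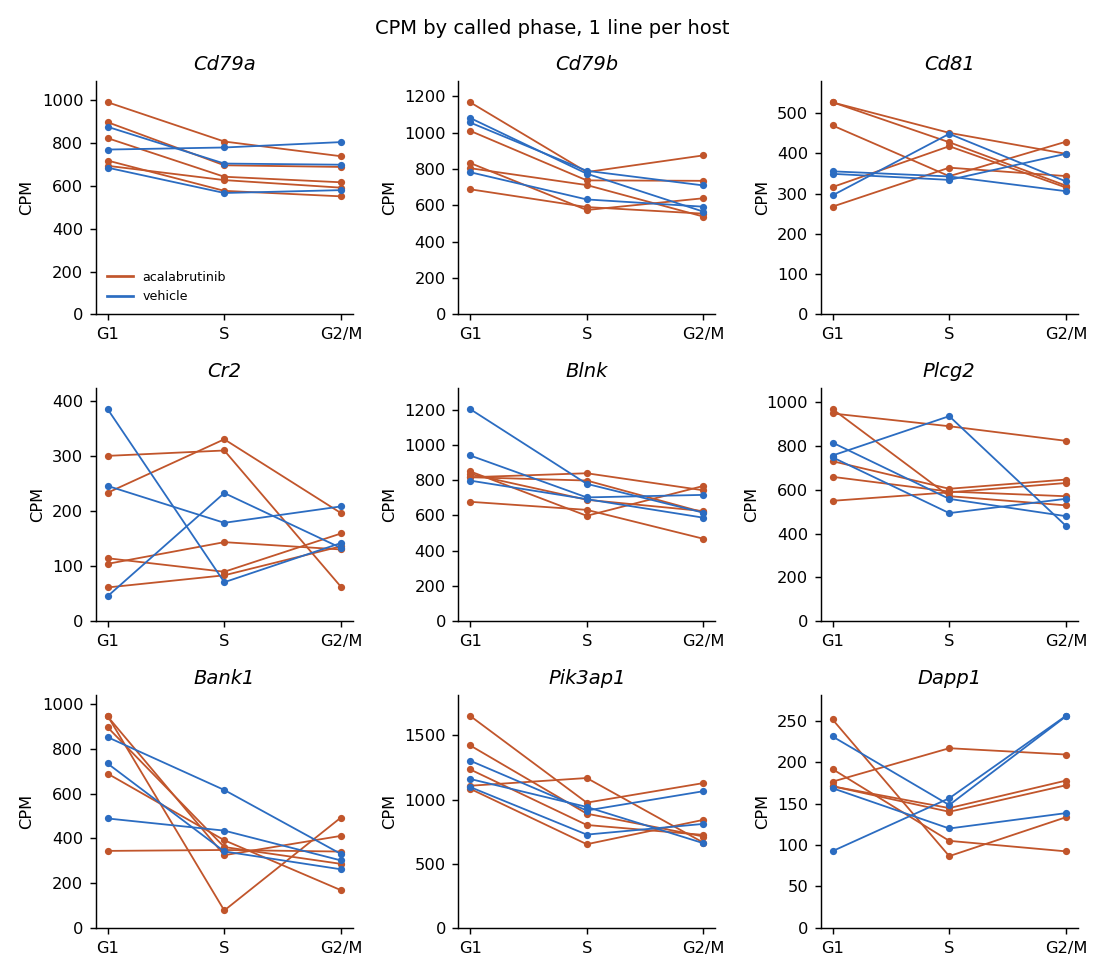
CPM (vertical axis) of each gene in cells called G1, S and G2/M, with 1 line per host colored by treatment. Cd79b is lower in S and in G2/M than in G1 cells in all 8 hosts, as are Bank1 in all but A11 and Pik3ap1 in all but A10, where S cells are higher (1168 against 1108 CPM), while the lines of Cr2 and Dapp1 cross.

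Depth differed between the states and bears on these values. The median total was 687083 counts in G1 and 869386 in S or G2/M cells, with 3486 and 4291 genes detected. Reads at the same position were counted once, which limits the counts that a short, abundant transcript can reach. Whether this shaped the values that follow was not tested. Cd79a had a median of 463 counts in the 160 cells with the lowest totals and 620 in the 160 with the highest, which made 980 and 549 CPM. The rank correlation of CPM with the total over 637 cells was -0.52 for Cd79a and -0.46 for Cd79b, and between -0.11 and 0.04 for the other 7 genes. Summed counts, which edgeR uses, differed with depth for more genes. Over the same low and high groups of 160 cells, Bank1 had 628 and 344 CPM, Blnk 870.5 and 596, and Pik3ap1 1215 and 892. Cd79a had 953 and 533 CPM there, Plcg2 668 and 611, and Dapp1 161 in both. Phases were not held apart in these groups. Cells of a host were therefore paired on their totals, a choice made after the data were seen, which left 428 cells with medians of 719562 and 758532 counts. In the paired cells Bank1 (log2 fold change -1.12 ± 0.21; edgeR, adjusted p = 0.0205) and Pik3ap1 (-0.58 ± 0.090; adjusted p = 0.00869) were still called. Cd79b (-0.35 ± 0.079; adjusted p = 0.0526), Blnk (-0.28 ± 0.078; 0.129) and Cd79a (-0.12 ± 0.073; 0.662) were not. The value of Cd79a moved by more than 1.5 times and those of Bank1 and Pik3ap1 moved little. Another draw took the same number of cells from both states of each host, without pairing on totals. There Cd79b (edgeR, adjusted p = 0.0215) and Pik3ap1 (0.00509) were called. Bank1 (0.0564), Blnk (0.105) and Cd79a (0.123) were not. The part of the number of cells in the calls lost on pairing was not tested. Single hosts decided some calls. Bank1 was not called without host A8 (log2 fold change -1.05; edgeR, adjusted p = 0.0508). Blnk was not called without A8, A11, A12, V5, V7 or V9, and Cd79a was not called without any host but V5, and with each host left out their log2 fold changes were between -0.38 and -0.30 for Blnk and between -0.35 and -0.28 for Cd79a. Pik3ap1 and Cd79b were called with each host left out.

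**Figure D4:**
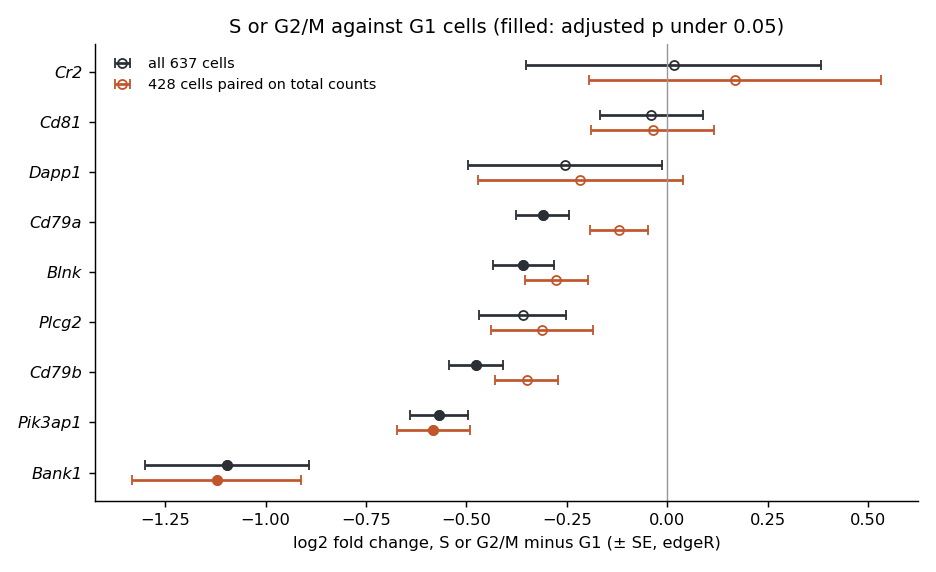
Log2 fold change, S or G2/M minus G1, with its SE from edgeR (horizontal axis) for the 9 genes in all 637 cells and in the 428 cells paired on total counts. Filled points have an adjusted p under 0.05. They are Bank1, Pik3ap1, Cd79b, Blnk and Cd79a in all cells, and Bank1 and Pik3ap1 in the paired cells.

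The share of cells with a count moved otherwise than the level. Across all 10617 genes tested it was higher in S or G2/M cells by a median of 4.88 percentage points. Signs of the 8 host differences were flipped in all 256 ways (exact permutation test, two-sided, smallest p 0.0078), and 1995 genes passed after adjustment (18.8%), but 0 of the 9. At an unadjusted exact p under 0.05 there were 3950 genes (37.2%) and 1 of the 9, Cd81. Cd81 had a count in 73.1% ± 9.89 of G1 and 85.2% ± 4.11 of S or G2/M cells (SD, n = 8), higher in 7 of 8 hosts, and did not pass after adjustment (exact p = 0.0313, adjusted p = 0.0952). Its level among cells with a count was lower in 7 of 8 hosts, with means of 506 and 427 CPM. For Bank1 the share in S or G2/M cells minus that in G1 cells was -4.62 percentage points (exact p = 0.219), lower in 4 hosts and higher in 4. At a fixed depth of 459128 counts per cell, which left out 64 cells, 0 of the 10617 genes passed after adjustment, the 9 included (Cd81, exact p = 0.0156, adjusted p = 0.0760). There 3318 genes had an unadjusted exact p under 0.05, against 3950 in all cells. The exact p takes few values with 8 hosts, so adjusted calls can be lost together.

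Between the cycling phases no gene of the set passed the test. In G2/M against S cells edgeR called 34 of 12849 genes (0.265%) and 0 of the 9, and at an unadjusted p under 0.05 there were 910 genes (7.08%) and 0 of the 9. Their log2 fold changes lay between -0.14 (Cr2) and 0.36 (Dapp1, ± 0.23, unadjusted p = 0.132). The mean of Bank1 was 362 CPM in S and 324 CPM in G2/M cells, against 737 CPM in G1, and that of Pik3ap1 884 and 826 CPM against 1258 CPM. Both genes were thus below their G1 level in S as in G2/M cells. The cycling contrast was also compared between treatments. Its difference, acalabrutinib against vehicle, lay between -0.56 ± 0.49 (Dapp1) and 0.24 ± 0.14 (Blnk). These values turned on single hosts. Dapp1 had -0.04 without V7 and -0.85 without V9. Bank1 had -0.44 with all hosts and -0.73 without A11 (edgeR, unadjusted p = 0.0275, adjusted p = 1.0). That was the lowest unadjusted p of the 9 genes over the runs with a host left out. With all hosts the difference had 0 of the 9 and 0 of 12686 genes (0%) called by edgeR and, at an unadjusted p under 0.05, 0 of the 9 and 392 genes (3.09%).

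Other genes of BCR signaling were lower in cycling cells too. The background for these lists is the 1.26% of all genes tested that were called lower and the 2.46% called higher, with a median log2 fold change of 0.14. Of 11 kinases tested 3 were lower in S or G2/M cells and none higher, Csk (log2 fold change -0.64 ± 0.14), Lyn (-0.58 ± 0.060) and Map4k1 (-0.46 ± 0.080), and the median of the list was -0.43. LYN starts the signal and CSK holds SRC-family kinases in check. Of 13 inhibitory receptors and phosphatases 2 were lower, Inpp4b (-0.78 ± 0.15) and Ptpn6 (-0.47 ± 0.073), which encodes the phosphatase SHP-1, with a list median of -0.47. Of 35 other adaptors and effectors 6 were lower and none higher (median -0.24), led by Itpr2 (-1.02 ± 0.15), a calcium channel opened by the product of PLCγ2, and Lat2 (-0.97 ± 0.12), a membrane adaptor. Of 10 tetraspanins, Ifitm genes and complement regulators 2 were lower, Cd53 (-0.54 ± 0.065) and Cd37 (-0.41 ± 0.059), with a list median of 0.13. Of 7 immunoglobulin constant regions 1 was lower, Ighg1 (-0.32 ± 0.057), with a list median of -0.32. All named genes had an adjusted p under 0.05 by edgeR. In the cells paired on depth 1 kinase, 2 of the inhibitory list, 4 of the adaptors and none of the others were called lower, against 56 of 11234 genes in all. With acalabrutinib none of these 5 lists held a called gene. The summed GC B cell markers were also lower in cycling cells, at 6534 CPM against 8759 CPM in G1, and their part in the result was not tested.

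Most pairs of the 9 genes were weakly correlated across cells. Over 36 pairs the Spearman correlation of log2(CPM + 1) across 637 cells, centred on each host, had a median of 0.04. It was highest for Cd79a and Cd79b, at 0.37, and positive in 8 of 8 hosts (0.11 to 0.66). For this pair it was 0.25 in G1 and 0.34 in S or G2/M cells. Outside the set, Cd79a and Cd79b each had a higher value with Actb (0.46 and 0.43) than with each other. Both genes fell with depth, which these points share, and at the fixed depth the value for Cd79a with Cd79b was 0.32. Next among the 36 pairs came Plcg2 with Pik3ap1 (0.15) and Bank1 with Pik3ap1 (0.14), both positive in every host. The other 33 pairs lay between -0.05 and 0.11. Cells with counts of both genes of a pair were 0.99 to 1.11 times as many as the product of the shares gives, highest for Cr2 with Dapp1 (15.2% of cells against 13.7%). A gene found in nearly all cells, such as Cd79a (99.5%) or Cd79b (97.5%), leaves this ratio almost no room above 1. For pairs with such a gene the ratio could not show whether counts fell in the same cells. These are descriptions over cells of 8 hosts, and weak values in sparse counts are no finding.

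**Figure D5:**
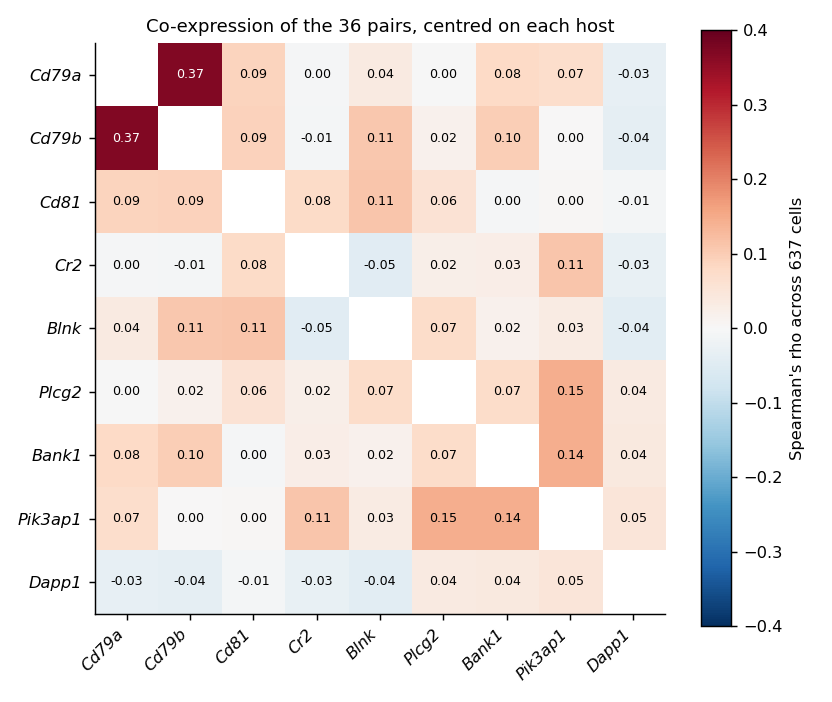
Spearman's rho (color scale and numbers) between each pair of the 9 genes across 637 cells, after centring on each host. The pair of Cd79a and Cd79b has 0.37 and all other pairs lie between -0.05 and 0.15.

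The genes most like each member were taken from 5703 other genes with a count in at least 25% of cells. For Cd79a they were the processed pseudogene Gm32220 (rho = 0.56, positive in 8 of 8 hosts), whose reads may be shared with a near-identical parent gene, and Actb (0.46), and for Cd79b H2-Ab1 (0.44) and Actb (0.43). CPM of Cd79a and Cd79b also fell with the total counts of a cell (rho = -0.52 and -0.46). Values at the fixed depth are not given for these pairs, and the part of depth in them was not tested. Bank1 was most like Pitpnc1 (0.22) and the MHC class II invariant chain Cd74 (0.21), and Pik3ap1 most like Ptpn6 (0.30) and Cd180 (0.25), all positive in 8 of 8 hosts. For Cr2 the values were 0.29 (Arhgap27) and 0.23 (Rps6ka2), for Dapp1 0.20 (Stat2) and 0.18 (Ypel5), each negative in at least 1 host. Cd81 (Ighv1-72, 0.18, and Tm9sf3, 0.16), Blnk (Rpl4, 0.18, and H2-DMa, 0.16) and Plcg2 (Ikzf1, 0.17, and Pld4, 0.16) had no gene above 0.2. The 95th percentile over the 5703 genes was between 0.07 and 0.10 for the 9 members.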

How the data were processed

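Single-cell SMART-seq2 libraries of LZ B cells were mapped by the authors with STARsolo 2.7.10a to GRCm39 release 107. Reads overlapping exons or introns were counted, and the authors deposited unnormalized counts after collapsing reads with identical positions. There are no molecular identifiers, so binomial intervals cover counting error only, while intervals of log2 fold changes come from edgeR and include the spread between hosts. The limits of the study (5% mitochondrial counts, 200 genes) removed no cell, and doublets were not called because cells were sorted into separate wells. Where entries shared a symbol, the one listed first was used.

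The 9 genes and all lists were chosen with earlier results of these data known. Phases were called with Seurat 5.3.0. Counts were summed per host, or per host and state (at least 5 cells each), and tested with edgeR 4.0.16 (quasi-likelihood, TMM, filterByExpr, Benjamini-Hochberg adjustment over all genes, threshold 0.05), with the host as a block for states. limma 3.58.1 and DESeq2 1.42.0 were alternatives. Shares were tested by exact two-sided tests over hosts for genes found in at least 10% of cells. Named were all 9 genes, the 3 largest called changes per list and direction, and the 2 genes most like each member, except that 1 gene of a list is not reported here. Cell correlations carry no p. Nothing says that hosts of a group were kept apart, so p-values measure the spread between these hosts. Host totals were between 26778559 and 114987280 counts. The edgeR tests of treatment and of S or G2/M against G1, and the exact tests of shares, were checked on simulated data. The simulated edgeR changes were larger than those reported for the 9 genes. The tests of G2/M against S and of the difference between treatments, DESeq2 and limma were not checked. Lengths came from GENCODE M21 (GRCm38). The file of run names was not used. Tools were R 4.3.3, Python and SciPy.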

Additional observations from a re-analysis of the deposited data

Results flagged for a closer look

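Among the 5 acalabrutinib-treated hosts, A7 had a share of cells with a Dapp1 count far below the others, at 35.6% (16 of 45 cells; exact 95% binomial interval 21.9% to 51.2%, counting error only), while the other hosts had 48.1% to 52.6%. Dapp1 in A7 was not low in level (182 CPM, against 147 to 203 CPM in the others), and the 16 cells had a median of 413 CPM. The gap was set against the range of the group by Dixon's criterion, and 1 of 18 such comparisons was beyond the limit, where chance gives about 1 in 20. The 3 vehicle-treated hosts are too few for this criterion.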

How the results depend on the processing

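With acalabrutinib against vehicle, none of the 9 genes was called under any of the 15 alternatives. Signs of values near 0 turned. Cd79a had a log2 fold change of 0.0066 with DESeq2 and 0.0090 without TMM, 0.0049 in thinned cells and 0.076 in G1 cells. Plcg2 had -0.016 in G1 cells. In S and G2/M cells Bank1 had -0.37 and Dapp1 -0.27, and without a filter on low counts -0.0057 and -0.0077. Leaving out each host in turn gave -0.18 to 0.10 for Cd79a, -0.20 to 0.078 for Cd79b, -0.032 to 0.19 for Plcg2, -0.15 to 0.28 for Bank1, -0.042 to 0.17 for Pik3ap1 and -0.17 to 0.18 for Dapp1.

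Of the 9 genes, 5 were called between S or G2/M and G1. The number was 2 without the replicate block of hosts and 4 without TMM or in thinned cells. It was 3 without a filter on low counts and 1 by limma on means over cells. With the same number of cells 2 were called (Cd79b and Pik3ap1), and in cells paired on depth 2 (Bank1 and Pik3ap1). With each host left out 2 to 4 were called, the fewest without A8. The limma values are differences in the mean over cells of log2(CPM + 1), which cells at 0 pull down. They are not fold changes of level. On that measure Cd81 had 1.01, Blnk 0.026 and Dapp1 0.17. Cd81 had a count in 73.1% of G1 and 85.2% of S or G2/M cells, with 506 and 427 CPM among cells with a count. Without a filter Cd81 had 0.015. Cr2 had -0.24 without the block, -0.028 with DESeq2 and -0.16 without cells near the phase limit. Leaving out hosts gave -0.11 to 0.048 for Cd81 and -0.26 to 0.28 for Cr2. Pik3ap1 was called in every alternative but limma. On its measure limma gave -0.27 for Pik3ap1, -0.28 for Cd79b and -0.067 for Cd79a. The log2 fold changes of edgeR, a different measure, were -0.57, -0.48 and -0.31. Genes called in all were 472, against 2378 with DESeq2, 2692 by limma, 270 without a filter, 238 in paired cells and 289 to 379 without single hosts. Of the 472, 312 were higher, against 2573 of the 2692 by limma and 182 of the 238 in paired cells. The median of all genes moved from 0.14 to -0.21 with DESeq2 and 0.41 without a filter, which leaves the 5 genes below it. The causes were not tested.

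G2/M against S, leaving out hosts gave -0.30 to 0.063 for Cr2, -0.18 to 0.012 for Plcg2, -0.40 to 0.0073 for Bank1 and -0.15 to 0.031 for Pik3ap1, and 10 to 22 genes in all against 34. For Cr2 the cycling contrast differed between treatments by -0.79 to 1.18. Shares by treatment turned for Cd79a in thinned cells (0.0040 points), Plcg2 at 5 counts (-1.35) and Bank1 in thinned cells (-2.16). Without single hosts they were -0.80 to 0.64 for Cd79b, -3.51 to 2.23 for Cr2, -0.61 to 2.60 for Plcg2, -1.43 to 2.03 for Bank1 and -2.08 to 1.11 for Pik3ap1, and by state -1.20 to 0.94 for Plcg2. With 7 hosts or in thinned cells no share of any gene passed between states, against 1995. The exact p takes few values with so few hosts, so adjusted calls can be lost together. Genes with an unadjusted exact p under 0.05 numbered 3442 to 3766 with 7 hosts and 3318 in thinned cells, against 3950. The median correlation of the pairs, 0.04, was 0.056 in G1 and 0.016 in S and G2/M cells.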
